A study of Mus musculus with 4 samples.

Results

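The 8 symbols Gata6, Timd4, Prg4, Cd5l, Icam2, Lyve1, Folr2 and Vsig4 were taken as identity genes of resident peritoneal macrophages and described across cell classes in single-cell RNA libraries of omental tumors and ascites. All 8 were found by symbol in each of the 4 libraries, among 30406 genes that the libraries share by identifier. The groups were KPCA ascites, from mice listed as 9 weeks old, and omental tumors of the lines KPCA.B, KPCA.C and KPCA.A, from mice listed as 8 weeks old. All mice were C57BL6J, each tumor library pooled 4 tumors, and each group had 1 library. The labels name the lines without spelling out their alleles, give no line for the ascites, and call the cells fallopian tube epithelial cells. Tumors were digested with collagenase type I and DNase I before droplet capture, so that the libraries held tumor cells together with the immune and stromal cells around them. No animal can be told apart within a library, so no test between groups was possible. Intervals are exact, cover 95%, and describe counting error only.

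Large peritoneal macrophages of the mouse are long-lived cells of the peritoneal fluid whose program depends on the transcription factor Gata6. Retinoic acid, supplied in part by Wt1-expressing mesothelial cells and fibroblasts of the cavity lining and omentum, is known to maintain Gata6 in them. Timd4 is a phosphatidylserine receptor for apoptotic cells, Prg4 encodes the lubricating glycoprotein lubricin, Cd5l a secreted scavenger-type protein, and Icam2 an integrin ligand that is also found on endothelium. Lyve1 is a hyaluronan receptor of lymphatic endothelium and of some tissue-resident macrophages, Folr2 the beta folate receptor of resident and alternatively activated macrophages, and Vsig4 a complement receptor of resident macrophages.

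On GRCm38 (GENCODE vM21), Timd4 lies at chr11:46810800-46844332 on the + strand and Icam2 at chr11:106377656-106388075 on the - strand. Prg4 lies at chr1:150449412-150466165 (-) and Cd5l at chr3:87357881-87371073 (+). Lyve1 and Folr2 share chromosome 7, at chr7:110850607-110863239 (-) and chr7:101839988-101857194 (-), and Vsig4 lies at chrX:96247203-96293438 (-). RefSeq promoter windows (GRCm38.p6) were at hand for 4 of the 8 genes, and the 250 bases before the annotated start were searched on both strands for the GATA motifs AGATAA and TGATAA and for the nuclear receptor motif AGGTCA. They are shown because these are the letters bound by the factor families that background knowledge places above this program. Capitals mark a match.
Cd5l, chr3:87357631-87357880, + strand: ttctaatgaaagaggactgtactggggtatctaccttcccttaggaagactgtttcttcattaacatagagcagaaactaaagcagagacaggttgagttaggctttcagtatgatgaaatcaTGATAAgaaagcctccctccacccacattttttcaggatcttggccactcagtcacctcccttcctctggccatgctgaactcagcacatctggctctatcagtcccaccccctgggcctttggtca
Timd4, chr11:46810549-46810798, + strand: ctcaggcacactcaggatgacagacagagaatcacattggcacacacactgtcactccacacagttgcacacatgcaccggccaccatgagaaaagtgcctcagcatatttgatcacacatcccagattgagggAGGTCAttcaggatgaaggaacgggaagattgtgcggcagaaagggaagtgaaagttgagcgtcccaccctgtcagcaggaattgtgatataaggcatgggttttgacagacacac
Vsig4, chrX:96293439-96293688, - strand: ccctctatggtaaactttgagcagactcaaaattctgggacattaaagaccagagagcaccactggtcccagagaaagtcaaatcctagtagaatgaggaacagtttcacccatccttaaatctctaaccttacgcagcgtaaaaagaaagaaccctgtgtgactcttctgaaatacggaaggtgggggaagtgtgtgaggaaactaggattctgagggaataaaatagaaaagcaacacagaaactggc
The Cd5l window held 1 TGATAA, 127 to 122 bases before the start, and the Timd4 window held 1 AGGTCA, 116 to 111 bases before it. The Vsig4 window and both Folr2 windows held none of the 3. Of 32851 windows of the same length, 9.99% held AGATAA, 7.94% TGATAA and 14% AGGTCA, so that single matches of this kind are common.

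After filtering, 2921 ascites cells, 2586 KPCA.B, 3098 KPCA.C and 2648 KPCA.A cells were used, of 16289 barcodes in all. The libraries held 7420674, 40054369, 95130645 and 58591493 unique molecular identifiers (UMIs, counted transcript molecules), in the same order, and at most 19 barcodes were shared by any pair. The mitochondrial limit removed most from KPCA.A, where 53.1% of barcodes were over it, against 5.42% in ascites. Clustering left the 8 genes out. Macrophage-like cells numbered 2752 in ascites and 639, 1142 and 858 in KPCA.B, KPCA.C and KPCA.A, and carried the macrophage genes Csf1r (147, 526, 535 and 535 CPM, UMIs of the gene scaled to the UMIs of the class) and C1qa (394, 3481, 2422 and 2921 CPM), with Cd3e at 0 to 0.342 CPM. Cells called tumor epithelial-like, to which the labelled cell type comes nearest, were 14 in ascites and 414, 1367 and 954 in these tumors. Fibroblast-like cells numbered 38, 118 and 172 in KPCA.B, KPCA.C and KPCA.A, and mesothelial-like cells 70, 43 and 47. Ascites had no fibroblast-like and 4 mesothelial-like cells.

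The 8 genes were highest in KPCA.B, intermediate in KPCA.C and lowest in KPCA.A among macrophage-like cells of the tumors, each in that order by CPM. For Lyve1, KPCA.C and KPCA.A were not apart, and KPCA.C was the lower with cells weighted alike, after thinning and without cells carrying a fibroblast UMI (down to -0.48 on the log2 scale). In CPM, ascites macrophage-like cells stood above all 3 tumors in Gata6, Prg4 and Cd5l and below all 3 in Timd4, Lyve1 and Folr2, although relative to the median gene Lyve1 (0.02 on the log2 scale), Folr2 (0.14) and Timd4 (0.44) were not below KPCA.A. A difference counted as 2-fold when log2(CPM + 5) differed by at least 1, and all genes with 50 or more UMIs over both libraries gave the background. A bulk level over a class cannot separate fewer cells with a gene from less RNA of it per cell, and both are therefore described further on.

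Gata6, the transcription factor of the set, had 54.1 CPM in ascites (95% interval 48.7 to 59.97), 38.2 in KPCA.B (34.3 to 42.4), 19.1 in KPCA.C (16.9 to 21.5) and 5.31 in KPCA.A (3.61 to 7.54). No 2 of these intervals overlap. The level in KPCA.B was 7.19-fold (4.97 to 10.7) that in KPCA.A and 2.00-fold (1.70 to 2.35) that in KPCA.C, and KPCA.C was 3.60-fold (2.48 to 5.40) above KPCA.A. These sums rest on 363 UMIs in ascites, 350 in KPCA.B, 271 in KPCA.C, against 31 in KPCA.A. With every cell thinned to 1000 UMIs the difference of KPCA.B over KPCA.A was 0.84 on the log2 scale, under the 2-fold limit, with 12 of 622 cells carrying Gata6 in KPCA.B and 7 of 816 in KPCA.A. KPCA.C over KPCA.A was 0.13 when each cell was weighted alike and 0.47 after thinning.

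Timd4 was close to absent from the ascites macrophage-like cells, with 1 UMI in 2752 cells (0.149 CPM, 0.00377 to 0.830). It had 15.7 CPM in KPCA.B (13.2 to 18.5), 3.38 in KPCA.C (2.5 to 4.49) and 0.685 in KPCA.A (0.187 to 1.75), so that the ascites and KPCA.A intervals overlap. KPCA.B was 4.64-fold above KPCA.C (3.32 to 6.57) and 22.9-fold above KPCA.A (8.76 to 85.2), where only 4 UMIs were counted. Prg4 had 1489 CPM in ascites (1460 to 1518), 273 in KPCA.B (262 to 284), 85.0 in KPCA.C (80.3 to 90.0) and 6.34 in KPCA.A (4.46 to 8.73). The 4 levels of Prg4 are apart, and KPCA.B was 43.0-fold above KPCA.A (31.1 to 61.3) and 3.21-fold above KPCA.C (2.99 to 3.44).

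Cd5l differed from Prg4 in that ascites and KPCA.B were close. It had 426 CPM in ascites (411 to 442), 393 in KPCA.B (380 to 406), 102 in KPCA.C (96.9 to 108) and 8.39 in KPCA.A (6.21 to 11.1). KPCA.B was 46.8-fold (35.3 to 63.4) above KPCA.A, and ascites 1.09-fold (1.03 to 1.14) above KPCA.B. Icam2 was at 20.1 CPM in ascites (16.9 to 23.8), 62.9 in KPCA.B (57.9 to 68.2), 25.5 in KPCA.C (23.0 to 28.3) and 5.65 in KPCA.A (3.89 to 7.94). Ascites and KPCA.C overlap in Icam2, and KPCA.B was 11.1-fold (7.84 to 16.3) above KPCA.A.

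Lyve1, the hyaluronan receptor, had 9.24 CPM in ascites (7.09 to 11.8), 170 in KPCA.B (162 to 179), 19.7 in KPCA.C (17.4 to 22.1) and 16.1 in KPCA.A (13.01 to 19.7). KPCA.B was 8.65-fold (7.61 to 9.86) above KPCA.C and 10.6-fold (8.58 to 13.2) above KPCA.A, while KPCA.C over KPCA.A was 1.22-fold with an interval that includes equality (0.964 to 1.56). In KPCA.C 1 cell held 20.4% of the Lyve1 UMIs. Folr2 had 17.3 CPM in ascites (14.3 to 20.7), 92.4 in KPCA.B (86.3 to 98.9), 35.1 in KPCA.C (32.1 to 38.3) and 25.3 in KPCA.A (21.4 to 29.8). Its spread over the tumors was the smallest of the set on the log2 scale, with KPCA.B 3.65-fold (3.06 to 4.37) above KPCA.A.

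Vsig4 had 9.09 CPM in ascites (6.95 to 11.7), 42.6 in KPCA.B (38.5 to 47.1), 19.96 in KPCA.C (17.7 to 22.4) and 1.54 in KPCA.A (0.705 to 2.93). Few cells carried it, namely 36 in ascites and 31, 16 and 2 in KPCA.B, KPCA.C and KPCA.A. The cells that did held 12.6 UMIs each in KPCA.B and 17.7 in KPCA.C on average. The 27.7-fold difference of KPCA.B over KPCA.A (14.4 to 60.9) rests on these few cells.

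**Figure D1:**
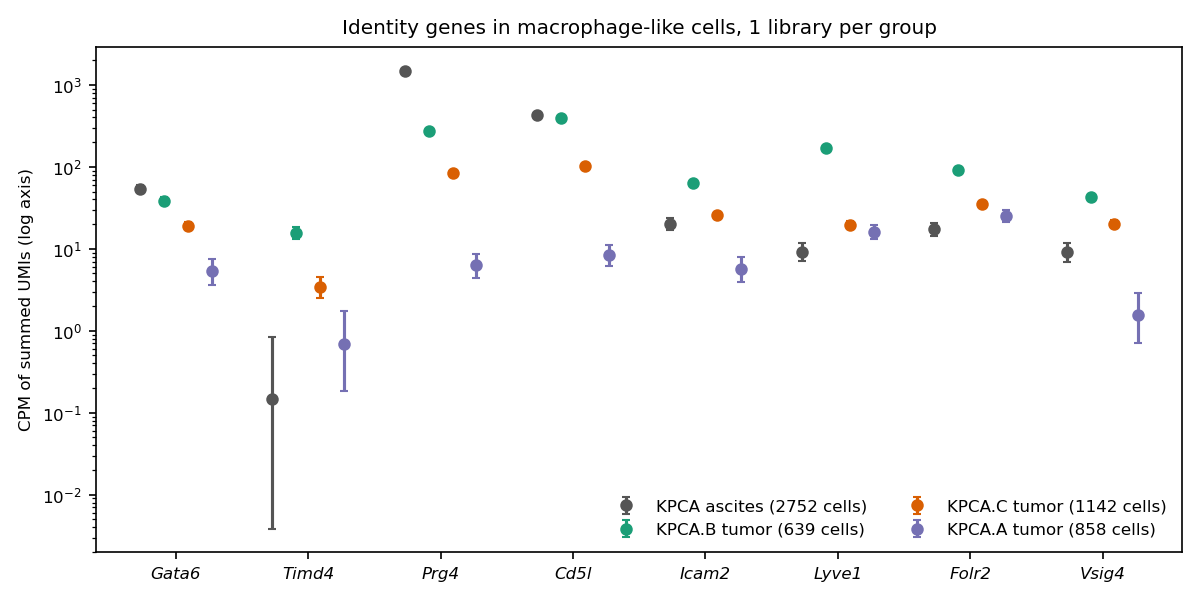
Level of each identity gene (CPM of summed UMIs, log axis) in macrophage-like cells of the 4 libraries, with points for the level and bars for the exact 95% Poisson interval of counting error. The KPCA.B point is above the KPCA.C and KPCA.A points for every gene, and the ascites point is the highest for Gata6, Prg4 and Cd5l and the lowest for Timd4, Lyve1 and Folr2.

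In counts, all 8 genes were 2-fold or more higher in KPCA.B than in KPCA.A, where 2.79% of 10020 genes were and 3.15% were lower. The median difference of the 8 was 2.77 on the log2 scale, against 0.03 over all genes. KPCA.B over KPCA.C had 6 of 8 past the same limit, against 2.36% of 10595 genes (3.16% were lower), with Gata6 (0.84 on the log2 scale) and Vsig4 (0.93) short of it. Without cells carrying a fibroblast UMI both passed it (1.16 and 2.21). Vsig4 also did with cells weighted alike (1.64), after thinning (1.39) and with 1 CPM added (1.06). Timd4 (0.61) and Icam2 (0.86) fell under it with 20 CPM added, and Folr2 (0.93) after thinning. The median of the 8 was 1.29, against 0.07 over all genes. KPCA.C over KPCA.A had 5 of 8, against 0.957% of 10346 genes (0.648% were lower), with Timd4, Lyve1 and Folr2 short of it. That count was 2 when each cell was weighted alike and 3 without the cells that carried a fibroblast transcript. Timd4 was 4.94-fold higher in KPCA.C by CPM (1.81 to 18.9), from 48 and 4 UMIs, and at 1.38 on the log2 scale with 1 CPM added. The 3 tumor comparisons share libraries and are not independent of each other.

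Ascites cells had a median of 2088 UMIs in the macrophage-like class, against 12187, 10454.5 and 5835 in KPCA.B, KPCA.C and KPCA.A, and the ascites files list 31053 genes against 32285 in the tumor files. They lay in clusters of their own (03, 04 and 05), while the tumor macrophage-like cells lay in 01, 08, 20, 22 and 23, apart from 1 KPCA.C cell. The median over all genes of ascites over a tumor was -0.59 on the log2 scale against KPCA.B, -0.52 against KPCA.C and -0.58 against KPCA.A, and the values below are also given relative to it. The neutrophil genes S100a8 and S100a9 summed to 2076.5 CPM in ascites macrophage-like cells, against 10.1, 7.90 and 9.93 in KPCA.B, KPCA.C and KPCA.A. Their part in the differences was not tested.

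Prg4 was the gene 2-fold or more higher in ascites than in every tumor, by 5.46-fold over KPCA.B (5.23 to 5.71), 17.5-fold over KPCA.C (16.5 to 18.6) and 235-fold over KPCA.A (170 to 334). After thinning, Gata6 was also 2-fold or more above all 3. None of the 8 was 2-fold or more lower than in all 3. Against KPCA.B, 1 gene was 2-fold or more higher (6.09% of 9925 genes were) and 5 were lower (30.4% were), namely Timd4, Icam2, Lyve1, Folr2 and Vsig4. Lyve1 was 18.4-fold lower (14.3 to 24.1), or -3.03 on the log2 scale relative to the median gene. Timd4, with 1 UMI in ascites, was 105-fold lower with a wide interval (18.6 to 4188). Icam2 lay at -0.84 relative to the median gene, under the 2-fold limit, and at -0.96 with median-of-ratios scaling. Against KPCA.C, Gata6 (2.83-fold), Prg4 and Cd5l (4.18-fold) were 2-fold or more higher, where 5.14% of 10255 genes were. None was lower, where 24.5% were. That rests on the 5 CPM added, since with 1 CPM added Timd4 (-1.93), Lyve1 (-1.01) and Vsig4 (-1.05) were 2-fold or more lower, as was Folr2 (-1.04) after thinning. Relative to the median gene, with 5 CPM added, Timd4 lay at -0.18, Lyve1 at -0.27, Folr2 at -0.33 and Vsig4 at -0.30. Against KPCA.A, Gata6 (10.2-fold), Prg4, Cd5l (50.8-fold), Icam2 (3.56-fold) and Vsig4 (5.90-fold) were higher, where 7.08% of 9395 genes were. None was lower, where 30% were, although Lyve1 was after thinning (-1.05). Gata6 over KPCA.B was 1.42-fold (1.22 to 1.65), or 1.05 on the log2 scale relative to the median gene.

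The share of macrophage-like cells with at least 1 UMI depends on depth and is given at full depth and after thinning to 1000 UMIs, which left out 687 ascites, 17 KPCA.B, 54 KPCA.C and 42 KPCA.A cells. Gata6 was found in 10.9% of ascites, 13.9% of KPCA.B, 7.62% of KPCA.C and 2.33% of KPCA.A cells, and after thinning in 4.65%, 1.93%, 1.29% and 0.858%. Prg4 was found in 66.8%, 21.4%, 7.88% and 1.63%, and after thinning in 58.3%, 11.7%, 2.76% and 0.368%. Cd5l was found in 40.5%, 25.7%, 8.84% and 2.21%, and after thinning in 27.7%, 14.8%, 3.40% and 0.368%. The Gata6 shares of ascites and KPCA.B stand in opposite order at full depth and after thinning, and no order is read from the full ones. For Prg4 and Cd5l the order of the thinned shares is that of the CPM, down to 3 cells each in KPCA.A. Lyve1 was found in 20.2% of KPCA.B cells, and Folr2 in 29.9%. T cell-like cells, which should lack the 8 genes other than Icam2, had no Gata6 UMI in 149 KPCA.B cells (median 3635 UMIs), which allows up to 4.51 CPM, and none in 150 KPCA.C cells (median 4849 UMIs), which allows up to 3.31 CPM. Their median depth was below that of the macrophage-like cells, so the 0 shares are not set against the shares above. The 45 T cell-like cells of KPCA.A also had 0 CPM of Gata6. B cell-like cells had 0 CPM in KPCA.B and KPCA.A but 3.11 in KPCA.C. NK cell-like cells had 0 CPM in KPCA.B and KPCA.C but 30.5 in KPCA.A, from 13 cells. A background below the macrophage-like level is thus not shown for KPCA.A. Prg4 was found in 2% of the KPCA.C T cell-like cells, and in 0 of 45 in KPCA.A (median 3008 UMIs), which allows a share of up to 6.67%. Cd5l was found in 0.671% of the T cell-like cells of KPCA.B and 0.667% of those of KPCA.C. Icam2 is itself expressed by lymphocytes and was found in 13.4% of KPCA.B and 12% of KPCA.C T cell-like cells.

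Within the tumors the genes were concentrated in part of the macrophage-like cells. Cluster 20, with Retnla, Chil3 and Alox15 among its leading genes, and cluster 22, with Retnla, Mgl2 and Mmp12, were formed without the 8 genes. They together held 54.5% of the macrophage-like cells of KPCA.B (50.5 to 58.4%), 10.9% of those of KPCA.C (9.11 to 12.8%) and 7.46% of those of KPCA.A (5.79 to 9.43%). They held 98.0% of the Gata6 UMIs of the class in KPCA.B, 90.4% in KPCA.C, against 58.1% in KPCA.A, the last of only 31 UMIs. For Prg4 the share was 99.7% in KPCA.B, 98.7% in KPCA.C, against 86.5% in KPCA.A, and for Cd5l 99.6%, 98.1% and 91.8%. Folr2 was less bound to these clusters, with 93.5% in KPCA.B, 32.7% in KPCA.C, against 33.1% in KPCA.A, and Icam2 had 95.7%, 80.4% and 24.2%. Lyve1 had 96.1%, 81.4% and 77.7%. Clusters 01 and 23, which held most other macrophage-like cells of the tumors, had Gata6 at 1.37 to 2.38 CPM in every tumor. Cluster 08, of shallow cells, had 0 CPM in KPCA.B (44 cells), 7.48 in KPCA.C (93 cells) and 14.9 in KPCA.A (137 cells, 4 UMIs). In KPCA.A, cluster 22 (29 cells) held no UMI of Gata6, Prg4, Cd5l or Lyve1, so that the KPCA.A shares of these genes are those of the 35 cells of cluster 20.

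Inside cluster 20, where KPCA.B had 286 cells and KPCA.C 104, the intervals of Prg4, Icam2 and Vsig4 included equality. Prg4 was at 413 CPM in KPCA.B and 432 in KPCA.C (0.956-fold, 0.886 to 1.03), Icam2 at 90.4 and 100 (0.900-fold, 0.768 to 1.06), and Vsig4 at 77.2 and 87.5 (0.882-fold, 0.743 to 1.05). Cd5l was at 629 CPM in KPCA.B and 524 in KPCA.C (1.20-fold, 1.13 to 1.28). Gata6 was lower in KPCA.B, at 58.6 CPM against 92.2 in KPCA.C (0.636-fold, 0.531 to 0.761). Lyve1 and Folr2 remained higher in KPCA.B, Lyve1 with 321 CPM against 75.8 in KPCA.C (4.23-fold, 3.64 to 4.94) and Folr2 with 174 CPM against 55.9 (3.11-fold, 2.60 to 3.75). Timd4 had 26.6 CPM in KPCA.B and 16.0 in KPCA.C (1.66-fold, 1.15 to 2.43). These are values of the cluster as a whole, and finer groups of cells differed from them, as given next.

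Clustering the tumor macrophage-like cells alone, again without the 8 genes, gave 15 groups, of which 3 stood out. Group M03 (103 cells, 97 of them from KPCA.B), led by Alox15 and Serpinb2, had Gata6 at 156 CPM, Prg4 at 1188, Cd5l at 1522, Icam2 at 234 and Timd4 at 49.4. Group M13 (88 cells, 79 of them from KPCA.C), led by the same pair of genes, had Gata6 at 110 CPM, Prg4 at 511, Cd5l at 619, Icam2 at 111 and Timd4 at 18.6. Group M01 (233 cells, 187 of them from KPCA.B), led by Retnla, Ccl8 and Marco, had Lyve1 at 451 CPM and Folr2 at 281, but Gata6 at 11.2 and Prg4 at 30.1. In Folr2, groups M12 (Cd163, Pf4) with 54.7 CPM and M14 (Nos2) with 46.8 CPM followed. M03 and M13 are mostly of 1 library each, so that the group and the library cannot be told apart. M03 of KPCA.B over M13 of KPCA.C was 1.58-fold for Gata6, 2.44-fold for Prg4, 2.60-fold for Cd5l, 2.10-fold for Icam2 and 2.77-fold for Timd4. There Lyve1 (1.04-fold) and Folr2 (0.974-fold) had intervals that include equality, and Vsig4 was lower (0.683-fold). In M01, KPCA.B over KPCA.C (32 cells) was 0.898-fold for Folr2 (0.753 to 1.08) and 4.13-fold for Lyve1 (3.19 to 5.45).

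The groups made up different shares of each tumor. M03 was 15.2% of the macrophage-like cells of KPCA.B, 0.438% of those of KPCA.C and 0.117% of those of KPCA.A. M13 was 0%, 6.92% and 1.05%, and M01 was 29.3%, 2.80% and 1.63%, in the same order of tumors. In KPCA.A the commonest groups were M08, led by pancreatic acinar genes (24.8%), M04, led by Ccl17 and Mmp13 (21.3%), and M02, led by Cxcl10 and Cxcl9 (15.3%), with Gata6 at 3.43, 1.31 and 2.999 CPM over the tumors. Outside M01, M03 and M13, Gata6 was highest in M07, which is also led by acinar genes, at 19.96 CPM, and then in M11 at 8.94 CPM. M07 (133 cells) is shallow, so that 5 UMIs of a gene make 24.9 CPM there, and its Gata6 value rests on fewer. The M11 value rests on 7 UMIs and the M08 value on 3, so that no order is read from these groups.

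Within KPCA.B the Gata6 genes and the Lyve1 genes were split between M03 and M01. Gata6 was 18.2-fold higher in M03 than in M01 (166 against 9.11 CPM, 12.04 to 28.9-fold), Prg4 36.2-fold (29.4 to 45.2), Cd5l 8.88-fold (8.06 to 9.79), Icam2 8.03-fold (6.30 to 10.3) and Timd4 3.098-fold (2.15 to 4.53). Lyve1 was 6.46-fold lower (5.46 to 7.70), at 78.9 CPM in M03 against 510 in M01, and Folr2 16.2-fold lower (11.4 to 23.6), at 17.3 against 279 CPM. Vsig4 differed least, at 73.2 CPM in M03 and 94.9 in M01 (0.771-fold, 0.622 to 0.952). In KPCA.C, M13 and M01 (32 cells) differed in Gata6 (105 against 20.6 CPM) and in Folr2 (17.7 against 310 CPM). Lyve1 was less split there, at 76.1 CPM in M13 (159 UMIs) and 123 in M01 (60 UMIs). Vsig4 was at 107 CPM in M13 of KPCA.C, with 0 UMIs in M01. A split like that of KPCA.B was measured between the ascites clusters. Gata6 was 15.8-fold higher in cluster 04 than in cluster 03 (75.5 against 4.79 CPM, 7.89 to 36.9-fold), Prg4 20.3-fold (17.4 to 23.8) and Cd5l 15.6-fold (12.2 to 20.4). Lyve1 was 34.3-fold lower (11.1 to 172), from 3 UMIs in cluster 04 and 49 in cluster 03, and Folr2 24.4-fold lower (11.9 to 58.2). Cluster 03 was led by Pf4, F13a1 and Cd163 among others and had S100a8 among its leading genes, and cluster 04 by Saa3, Car4 and Alox15.

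**Figure D2:**
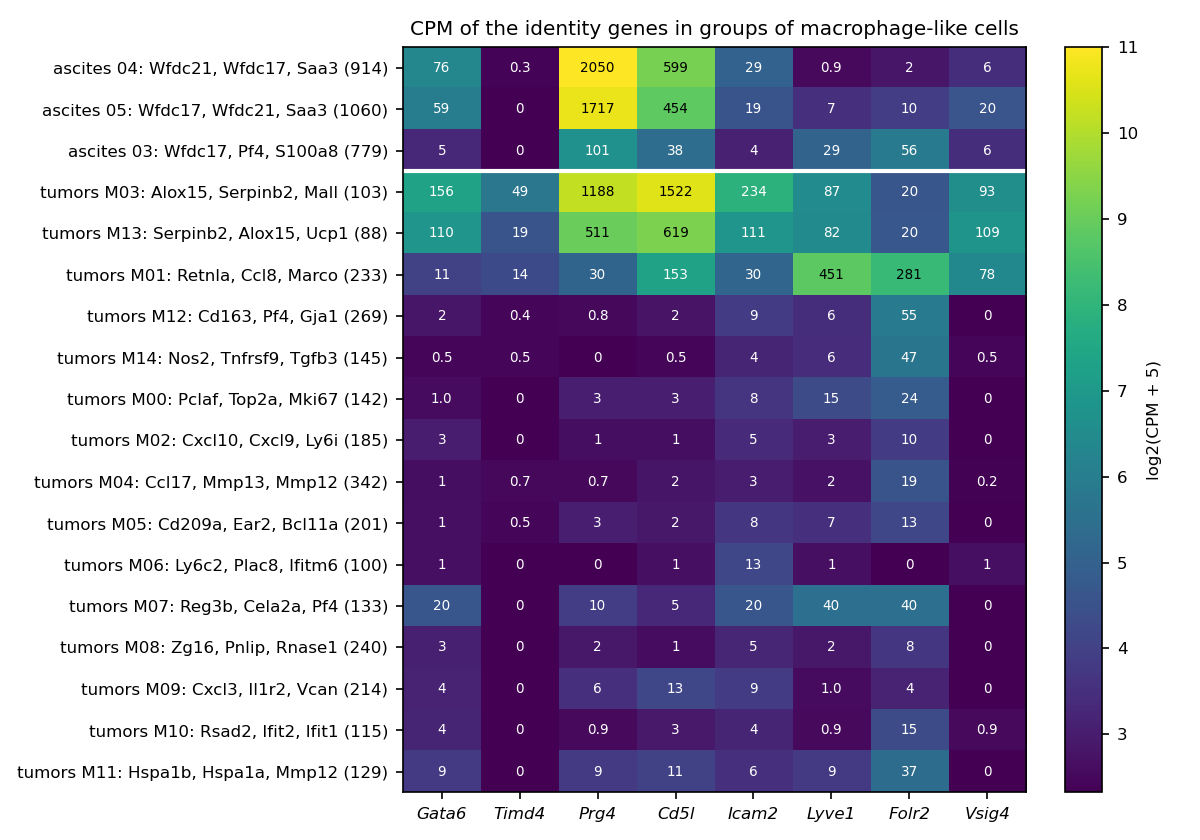
CPM of the 8 genes (numbers in the cells, colour as log2(CPM + 5)) in the 3 ascites clusters, above the white line, and in the 15 groups of tumor macrophage-like cells, named by leading genes with cell numbers in brackets. Gata6, Prg4 and Cd5l are high in ascites 04 and 05 and in M03 and M13, while Lyve1 and Folr2 peak in M01. Ascites cluster 05 includes 1 KPCA.C cell.

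Co-detection was counted in single cells. Of the 89 KPCA.B macrophage-like cells with a Gata6 UMI, 91.0% also had Cd5l (83.1 to 96.0%), 87.6% Prg4 and 76.4% Icam2, against 15.1%, 10.7% and 14.9% of the 550 cells without one. Lyve1 was found in 22.5% of the Gata6 cells (14.3 to 32.6%) and in 19.8% of the others (16.6 to 23.4%). Folr2 was found in 20.2% of the Gata6 cells and in 31.5% of the others. Of the 129 cells with Lyve1, 68.2% also had Folr2 (59.4 to 76.1%), against 20.2% of the cells without Lyve1, and 15.5% had Gata6. In KPCA.C 66.7% of 87 Gata6 cells had Cd5l and as many had Prg4. In ascites 93.0% of 299 Gata6 cells had Prg4, 65.6% Cd5l and 0.669% Lyve1. Of all 2921 cells of that library, 64.1% had Prg4, 38.8% Cd5l and 1.51% Lyve1, so that Lyve1 was rare there in any case. The shares of Prg4 and Cd5l over all macrophage-like cells of KPCA.C and ascites are those given above. Such shares depend on depth. After thinning the KPCA.B Gata6 cells were 12, of which 75% had Prg4 and 66.7% Cd5l, while of 14 KPCA.C Gata6 cells 21.4% had Prg4 and 42.9% Cd5l.

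**Figure D3:**
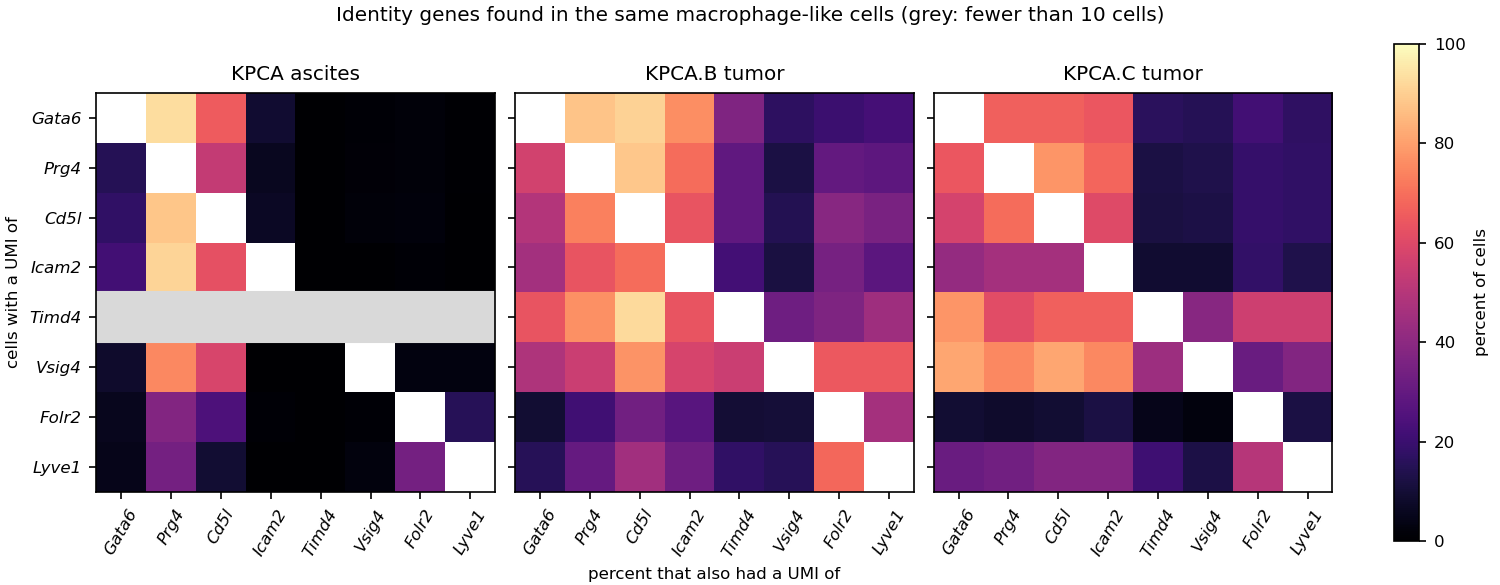
Share of macrophage-like cells (colour, percent) with a UMI of the gene in the column among cells with a UMI of the gene in the row, at full depth, in ascites, KPCA.B and KPCA.C. Grey rows rest on fewer than 10 cells. Gata6, Prg4, Cd5l and Icam2 form a block of high shares in both tumors (Cd5l in 91.0% of KPCA.B Gata6 cells), and Lyve1 and Folr2 a smaller one.

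All 8 genes were found in 0 of 2752 ascites cells, 2 of 639 KPCA.B, 3 of 1142 KPCA.C and 0 of 858 KPCA.A cells. No identity gene at all was found in 24.96% of ascites, 44.1% of KPCA.B, 66.4% of KPCA.C and 83.9% of KPCA.A macrophage-like cells. After thinning these shares were 33.0%, 68.3%, 88.9% and 95.2%, in the same order as at full depth.

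Of the 8 genes, Gata6 had the smallest share of its UMIs in macrophage-like cells in each tumor. Macrophage-like cells had 96.5% of the Gata6 UMIs of the ascites library, 15.9% of those of KPCA.B, 4.75% of KPCA.C and 0.722% of KPCA.A. Most other Gata6 UMIs lay in tumor epithelial-like cells (38.7%, 56.8% and 55.8% in KPCA.B, KPCA.C and KPCA.A), mesothelial-like cells (33.2%, 12.03% and 11.4%) and fibroblast-like cells (6.23%, 24.7% and 25.5%). Duct-type epithelial-like cells held 3.18%, 0.14% and 5.31%. In contrast, macrophage-like cells held 97.8% of the Prg4 UMIs in KPCA.B, 90.3% in KPCA.C, against 53.6% in KPCA.A, and 98.5%, 95.3% and 83.1% of those of Cd5l.

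Mesothelial-like cells had Gata6 at 373 CPM in KPCA.B (347 to 401), 340 in KPCA.C (315 to 367) and 387 in KPCA.A (353 to 423). At least 93.0% of these cells carried it, and the 3 intervals overlap. Fibroblast-like cells had 179 CPM in KPCA.B (150 to 211), 281 in KPCA.C (267 to 296) and 270 in KPCA.A (254 to 287), the KPCA.B value from 38 cells. Macrophage-like cells were 14.7-fold lower than fibroblast-like cells in KPCA.C (12.9 to 16.8) and 50.9-fold lower in KPCA.A (35.6 to 75.3). Tumor epithelial-like cells had 74.2, 50.7 and 76.3 CPM in KPCA.B, KPCA.C and KPCA.A. Duct-type epithelial-like cells had 301 CPM in KPCA.A (80 cells, 263 to 343). Endothelial-like cells had 4.60, 2.77 and 3.88 CPM from 1 or 2 UMIs each.

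**Figure D4:**
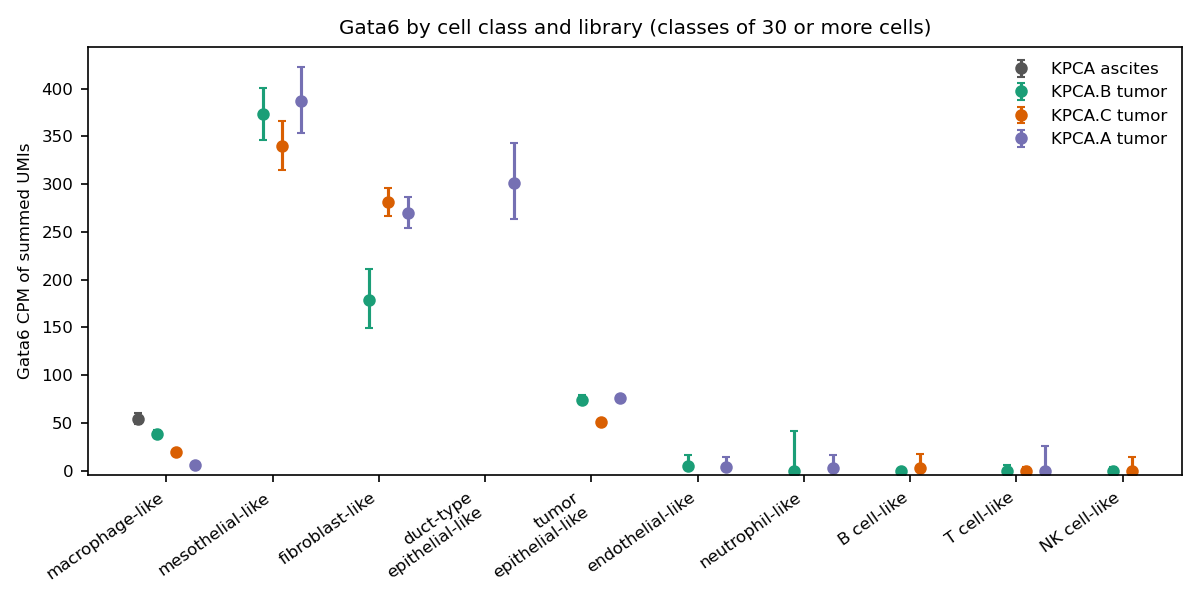
Gata6 level (CPM of summed UMIs, linear axis) in classes of 30 or more cells, by library, with exact 95% Poisson intervals as bars. Mesothelial-like cells lie between 340 and 387 CPM and fibroblast-like cells between 179 and 281 CPM, above the macrophage-like cells of all 4 libraries, which reach 54.1 CPM.

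Among stromal clusters pooled over the libraries, Gata6 varied within the fibroblast-like class. It was at 385 CPM in 70 cells led by Cxcl13, Dcn and Wnt4, at 273 in 62 cells that also had Msln (87.9 CPM) and Lrrn4 (94.8 CPM), and at 277 in 79 cells with Timp1 and Lox. It was at 199 CPM in 71 cells with the most Col1a1 (9545 CPM), and at 54.2 CPM (37.5 to 75.7) in 46 cells with the most Pi16 (226 CPM) and Lum (1038 CPM). The mesothelial-like clusters were at 353 CPM, with 4 of 75 cells from ascites, and 375 CPM. Wt1, a transcription factor of the mesothelial and stromal lineage, was present in all of them, from 128 CPM in the Pi16 cells to 356 CPM in the Cxcl13 mesothelial-like cells.

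The other 7 genes were near 0 in fibroblasts, with at most 4.20 CPM in KPCA.C and KPCA.A and, for Lyve1, 9.12 CPM (7 UMIs) in KPCA.B. In KPCA.C, 6 of the 8 genes were 2-fold or more higher in macrophage-like than in fibroblast-like cells, where 14.2% of 11120 genes were, with Gata6 lower (15.7% of genes were) and Timd4 short of the limit. Timd4 had 48 UMIs in macrophage-like and 0 in fibroblast-like cells, and was at 2.13 on the log2 scale with 1 CPM added. Prg4 had 85.0 CPM in macrophage-like and 0.996 CPM in fibroblast-like cells, and Cd5l had 102 and 0.597 CPM. In KPCA.A, 4 of the 8 were higher, where 14.6% of 10238 genes were, and Gata6 was lower, where 16.5% were. These were Cd5l, Icam2, Lyve1 and Folr2, of which Cd5l and Icam2 had fewer than 50 UMIs over both classes. That count was 2 after thinning and 1 with 20 CPM added in place of 5. Prg4 in KPCA.A was at 6.34 CPM in macrophage-like and 4.20 in fibroblast-like cells (1.51-fold, 0.829 to 2.86). Mesothelial-like cells had Prg4 at 8.70, 30.2 and 4.75 CPM in KPCA.B, KPCA.C and KPCA.A, the KPCA.C value from 61 UMIs in 43 cells.

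Because stromal and tumor cells carry Gata6, their transcripts were measured in the macrophage-like cells. The fibroblast markers Col1a1, Col1a2, Col3a1, Dcn and Lum summed to 4.17 CPM in ascites, where Lum was at 0, and to 15.4, 70.0 and 45.5 CPM in KPCA.B, KPCA.C and KPCA.A, with all 5 found. In the same cells Gata6 was highest in ascites, then in KPCA.B, KPCA.C and KPCA.A. Per 100 UMIs of these markers, macrophage-like cells had 1296 Gata6 UMIs in ascites, and 248, 27.3 and 11.7 in KPCA.B, KPCA.C and KPCA.A. That compares with 0.847, 1.26 and 1.61 in the fibroblast-like cells of the same tumors. The epithelial keratins Krt8 and Krt18 summed to 2.38 CPM in ascites macrophage-like cells and to 9.27, 74.3 and 78.3 CPM in those of KPCA.B, KPCA.C and KPCA.A. Per 100 UMIs of them, macrophage-like cells had 412, 25.7 and 6.78 Gata6 UMIs in KPCA.B, KPCA.C and KPCA.A. Tumor epithelial-like cells had 3.54, 2.32 and 1.77, in the same order. By cluster the KPCA.A ratio was 138 in cluster 20 (18 Gata6 UMIs) and 8.51 in cluster 08 (4 UMIs). It was 2.72 in cluster 23 (429 cells, 7 UMIs) and 1.75 in cluster 01 (228 cells, 2 UMIs). Clusters 23 and 01 lay nearest the ratio of the tumor cells, but on these few UMIs. Mesothelial markers (Msln and Upk3b) summed to at most 2.40 CPM, with Upk3b at 0 outside KPCA.B. Per 100 UMIs of these 2 markers, macrophage-like cells had 5000, 797 and 282 Gata6 UMIs in KPCA.B, KPCA.C and KPCA.A. Mesothelial-like cells had 158, 146 and 125, so that the 2 classes were nearest in KPCA.A. These ratios are descriptions, and the part of such transcripts in the Gata6 counts was not tested.

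Icam2 was also found in endothelial-like cells, with 120, 216 and 159 CPM in KPCA.B (45 cells), KPCA.C (18 cells) and KPCA.A (84 cells), and was at 50.4 CPM in B cell-like, 33.1 in T cell-like and 24.8 in plasma cell-like cells of KPCA.B. Macrophage-like cells held 54.4% of the Icam2 UMIs of KPCA.B, 67.7% of KPCA.C and 25.4% of KPCA.A. Lyve1 was at 2.30 CPM, 0 and 5.82 CPM in the same endothelial-like cells, in which the lymphatic gene Prox1 was at 0, 0 and 1.94 CPM. Timd4 was found in dendritic cell-like cells of all 4 libraries, at 41.1 CPM in ascites (13 UMIs in 134 cells), and 45.3, 26.9 and 32.2 CPM in KPCA.B, KPCA.C and KPCA.A. In ascites and KPCA.A these cells held more Timd4 UMIs than the macrophage-like cells did.

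The 4 lists of other macrophage genes, chosen with earlier results of these data known, were read beside the members. Of the large peritoneal list, 36 of 38 genes were tested in KPCA.B over KPCA.A, and 21 were 2-fold or more higher and 4 lower, with a median of 1.36 on the log2 scale. Alox15, a lipoxygenase, was 79.2-fold higher (380 against 4.79 CPM), the complement gene C4b 14.4-fold (317 against 21.9 CPM) and the scavenger receptor Marco 16.4-fold (135 against 8.22 CPM). At the other end, the transcription factor Cebpb had 258 CPM in KPCA.B against 1250 in KPCA.A, Car4 had 2.73 against 14.2, and Bhlhe40 175 against 425. The same list had 9 genes higher and 5 lower of 37 in KPCA.B over KPCA.C, 15 higher and 0 lower of 34 in KPCA.C over KPCA.A, and, in ascites, 9 higher and 6 lower of 38 against KPCA.B, 16 and 4 of 34 against KPCA.C, and 21 and 3 of 34 against KPCA.A. Over all genes, 2.79%, 2.36% and 0.957% were higher and 3.15%, 3.16% and 0.648% lower in the 3 tumor comparisons, in the order given. In the 3 ascites comparisons, 6.09%, 5.14% and 7.08% of all genes were higher and 30.4%, 24.5% and 30% lower.

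The tissue-resident list of Lyve1 and Folr2 macrophages had 7 genes 2-fold or more higher and 2 lower of 23 tested in KPCA.B over KPCA.A, with a median of 0.61. Over all genes, 2.79% were higher and 3.15% lower in that comparison, which is also the one read for the next lists. Fcna, a ficolin, was 13.4-fold higher (291 against 21.7 CPM), the growth factor Igf1 4.09-fold (174 against 42.6 CPM) and the leukotriene synthase gene Ltc4s 3.75-fold (332 against 88.5 CPM). The chemokines Ccl7 (89.5 against 275 CPM), Ccl24 (1936 against 4068) and Pf4 (201 against 346, short of 2-fold) were the lowest. Gas6 stands in both this and the large peritoneal list, and Mgl2 in both this and the small peritoneal one. Of the monocyte-derived list, 3 of 14 were higher and 0 lower, with a median of 0.09. Chil3 was 4.08-fold, Ifitm6 4.01-fold and S100a4 2.20-fold higher, while Fcgr1 (0.558-fold), Vcan (0.584-fold) and Itgal (0.652-fold) were the lowest, all short of 2-fold. Of the small peritoneal and MHC class II list, 3 of 11 were higher and 0 lower. Retnla was 25.2-fold higher, Clec4b1 3.98-fold and Irf4 2.51-fold, while Itgax (0.690-fold), H2-Aa (0.825-fold) and H2-Eb1 (0.840-fold) were the lowest, all short of 2-fold. In KPCA.B over KPCA.C the small peritoneal list had 6 of 11 higher and 0 lower, with a median of 1.13. The tissue-resident list had 7 higher and 4 lower of 24 there, and the monocyte-derived list 2 and 1 of 14. In KPCA.C over KPCA.A the small peritoneal list had 0 higher and 2 lower of 10. In ascites the small peritoneal list was 2-fold or more lower for 11 of 11 genes against KPCA.B, 8 of 10 against KPCA.C and 8 of 9 against KPCA.A, with medians of -3.67, -2.69 and -3.92, where 30.4%, 24.5% and 30% of all genes were lower and their medians were -0.59, -0.52 and -0.58.

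Stromal genes of retinoic acid supply and macrophage niche were described in mesothelial-like and fibroblast-like cells. Aldh1a2, a retinoic acid synthesis enzyme, had 218, 286 and 224 CPM in fibroblast-like cells of KPCA.B, KPCA.C and KPCA.A, and 169, 176 and 151 CPM in mesothelial-like cells. Wt1 had 173, 186 and 232 CPM in fibroblast-like and 311, 285 and 322 CPM in mesothelial-like cells. Rdh10, a retinol dehydrogenase, had 243, 287 and 311 CPM in mesothelial-like cells, and Aldh1a1 134, 72.8 and 72.9 CPM. Aldh1a3 was lower in KPCA.B, with 8.19 CPM in mesothelial-like cells against 25.7 in KPCA.C and 76.9 in KPCA.A. Of the mesothelial-like cells, 64 of 70 in KPCA.B lay in the cluster led by Cxcl13. The cluster led by Slpi and Msln held 32 of 43 in KPCA.C and 33 of 47 in KPCA.A. Aldh1a1 was at 139 CPM in the first cluster and 62.1 in the second, so that line and cluster cannot be told apart here. The reductase gene Dhrs3 had 59.9 to 118 CPM in mesothelial-like cells. Dhrs9 reached 51.0 CPM (KPCA.C) and the Csf1 receptor ligand Il34 61.9 CPM (KPCA.B) there. Csf1 had 133, 133 and 123 CPM and Tgfb1 71.7, 101 and 118 CPM in fibroblast-like cells of KPCA.B, KPCA.C and KPCA.A.

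Likeness of pattern was measured as Pearson's r of log2(CPM + 5) over 22 sums of a class in a library with at least 50 cells, which share libraries and depth. Among the genes closest to Gata6 were Tmem53 (0.93) and Sdsl (0.92), and r with the other 7 members lay between -0.56 and 0.11. Prg4 and Cd5l had r = 0.96 with each other. Beside it, Vmn2r26 (0.96) and Gm12606 (0.95) were closest to Prg4, and Fcna (0.96) and Vmn2r26 (0.96) to Cd5l. Lyve1 was closest to Cacna1f (0.91), Folr2 (0.91) and Peak1os (0.88), and Folr2 to Clec4a3 (0.96) and the complement genes C1qb (0.95) and C1qc (0.94). Vsig4 was closest to Rnase2b (0.95), Plin1 (0.95) and Cd209b (0.94). Icam2 was closest to the endothelial genes Fli1 (0.82), Pde2a (0.80) and Pecam1 (0.80), and Timd4 to Cacna1b (0.94) and the dendritic cell genes Ccl17 (0.93) and Cd209a (0.92).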

How the data were processed

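The 4 droplet libraries were used, 1 per group, so p-values were not computed. The deposited matrices hold UMI counts per gene and barcode, and, per the file headers, were written by Cell Ranger 4.0.0 (tumors) and 3.0.2 (ascites). The submitters' processing notes name Cell Ranger 3.1.0 and mm10, and the labels name the 10x single cell 3′ protocol. The deposited gene and barcode lists were joined to the matrices by position, and 0 columns of other samples were met.

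Barcodes under 300 genes or 500 UMIs, or over 15% mitochondrial UMIs, were dropped. Counts were scaled to 10000 per cell and clustered in scanpy 1.11.5 (Python 3.11.15) on 2000 variable genes without the 8 members, with 30 principal components, 15 neighbours and Leiden resolution 1. Clusters were named "-like" for the marker list best represented in their 100 leading genes (3 genes or more), and stayed unnamed where another class led their 10 leading genes, where shallow cells had no marker there, or where naming against all and against stromal clusters differed. Tumor epithelial-like clusters needed 500 CPM of Krt8 and Krt18 and 200 of Cdkn2a, and took clusters past these levels that led with stromal genes, among them cluster 09 (608 cells, 587 of KPCA.C, 10 fibroblast and 7 tumor markers). Stromal and macrophage-like cells were clustered again. Naming settings and sub-clusterings were chosen after seeing the data. The doublet caller marked 16 of 11253 cells (0.142%) and is taken not to have worked, so doublets remain. There were 37 clusters, of which 2 (70 cells) stayed unnamed.

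UMIs were summed per class and library over 30406 shared genes. CPM intervals are exact Poisson, shares Clopper-Pearson and ratios exact conditional (scipy 1.17.1). A count of 0 was taken to allow 3. Fold differences use log2(CPM + 5). Classes under 50 cells were given without a fold. The ratio and interval code was checked on simulated counts. Named beside the members were the 3 highest and 3 lowest genes of each list in KPCA.B over KPCA.A, retinoic list genes with 50 CPM or more, and the 3 genes of most like pattern, apart from items that are not reported here. The members and lists were chosen with earlier results of these data known. Sequences are from RefSeq.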

Additional observations from a re-analysis of the deposited data

How the results depend on the processing

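Over 14 alternatives, the 45 single-gene differences of 2-fold or more gave 630 values, of which 630 kept their direction and 601 were still 2-fold or more. The alternatives that add 1 or 20 CPM in place of 5 cannot reverse a direction, so their values bear on size only. Of counts and shares, 127 of 138 stayed within their limits. The count of KPCA.C over KPCA.A fell from 5 to 2 with cells weighted alike, to 2 with 20 CPM added, and to 3 without cells carrying a fibroblast UMI. The count of macrophage-like over fibroblast-like cells in KPCA.A fell from 4 to 1 with 20 CPM added and to 2 after thinning. The count above all 3 tumors in ascites was 2 after thinning. Clusters 20 and 22 held, after thinning, 91.7% of the Gata6 UMIs and 91.3% of the Lyve1 UMIs in KPCA.B and 66.7% and 62.5% in KPCA.C. Without cells carrying a fibroblast UMI they held 80.0% of the Gata6 UMIs in KPCA.C. The cause was not tested. Leaving out cluster 08, an alternative chosen after seeing the data, moved 4 of 64 single-gene values. Of the differences under 2-fold, 5 changed sign on the log2 scale, namely Lyve1 in KPCA.C over KPCA.A (-0.48 to 0.40), Vsig4 (-1.05 to 0.42) and Icam2 (-0.33 to 0.30) in ascites over KPCA.C, and Folr2 (-0.53 to 0.03) and Timd4 (-0.55 to 0.13) in ascites over KPCA.A. No paired analysis was possible because each group had 1 library. Depth per cell was lowest in ascites, where Timd4 rests on 1 UMI, and in KPCA.A Timd4 rests on 4 and Vsig4 on 9 UMIs.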
